A study of Mus musculus with 620 samples.

Results

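A set of 8 genes that mark B lymphocytes was followed through a body-wide mouse RNA-seq series: Ms4a1, Cd79a, Cd79b, Cd22, Cr2, Fcer2a, Blk and Pax5. They were taken by symbol, and each was present as 1 row among the 24850 genes of the table for the cohort labelled LT and among the 40840 genes of the tables for the cohorts labelled ST and YA. The series held 620 poly(A) libraries of 72 mice, with 1 library per animal and tissue, and its labels name age, a hypothalamic GLP-1R knockdown and 2 drugs: exenatide, a peptide that activates the GLP-1 receptor (GLP-1R), and rapamycin, which inhibits mTOR. The LT cohort had 284 libraries of 12 tissues from 8 young controls (LT_Y_ctrl), 9 aged controls (LT_A_ctrl) and 8 aged mice given exenatide (LT_A_Ex). Fewer LT libraries were present for white blood cells (n = 5 in every group), for young colon and muscle (n = 6) and for aged frontal cortex and lung (n = 8). The YA cohort, which the deposit names as young, had 128 libraries of 8 tissues from 8 controls (YA_ctrl) and 8 exenatide mice (YA_Ex). The ST cohort had 208 libraries of 7 tissues with n = 5 per condition, apart from white blood cells of exenatide and rapamycin mice with n = 4. Its conditions were young controls (ST_Y_ctrl, drawn from 6 animals), aged controls (ST_A_ctrl), aged mice given exenatide (ST_A_Ex) or rapamycin (ST_A_rapa), aged mice with the knockdown (ST_A_ctrl_KD), and aged mice with the knockdown and exenatide (ST_A_Ex_KD). Ages, doses, treatment lengths, strain, sex, the means of the knockdown and the fat depot are not given in the sources used here. All 3 tables were scaled separately, so levels in different cohorts are not compared by a test.

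A B cell carries an antibody on its surface that cannot signal alone, and the proteins of Cd79a and Cd79b are the pair that relay its signal. Blk is a Src-family kinase of that receptor's signalling, Cd22 a sialic acid-binding receptor that dampens it, and Cr2 (complement receptor CD21) a receptor that strengthens it when antigen is coated with complement. Ms4a1 encodes the surface protein CD20, Fcer2a the low-affinity IgE receptor CD23, which is abundant on follicular B cells, and Pax5 the transcription factor that holds cells in the B lineage. Plasma cells, the antibody-secreting descendants of B cells, lose Pax5, Ms4a1, Cr2 and Fcer2a while some keep Cd79a, and Cd22 is also known from microglia, the macrophages of the brain.

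The promoters of Cd22, Cr2 and Fcer2a are shown first. Cd22 rose with age in brain, and Cr2 and Fcer2a were set against Cd79a in blood and spleen. In LT spleen Ms4a1, Cd79b and Blk fell against Cd79a with age as Cr2 and Fcer2a did. RefSeq windows on the build GRCm38.p6 were at hand for 5 of the 8 members (Cd79a, Cd22, Cr2, Fcer2a and Pax5), and each run below covers bases 120 to 11 before a start of transcription, on the minus strand. Capitals mark an EBF site (TCCC, any 2 bases, GGGA) in Cd22, a TATA box, TATAAA, in the Fcer2a window farthest upstream, and an E-box, CAGCTG, in the Fcer2a window next to it.
Cd22, chr7:30879039-30879148: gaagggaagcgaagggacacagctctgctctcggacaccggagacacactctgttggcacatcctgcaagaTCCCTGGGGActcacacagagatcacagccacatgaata
Cr2, chr1:195176730-195176839: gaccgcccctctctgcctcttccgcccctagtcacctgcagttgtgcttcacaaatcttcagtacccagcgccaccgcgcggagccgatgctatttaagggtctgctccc
Fcer2a, upstream start, chr8:3694185-3694294: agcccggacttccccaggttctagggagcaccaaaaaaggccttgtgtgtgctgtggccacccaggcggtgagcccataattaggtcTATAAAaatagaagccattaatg
Fcer2a, next start, chr8:3690872-3690981: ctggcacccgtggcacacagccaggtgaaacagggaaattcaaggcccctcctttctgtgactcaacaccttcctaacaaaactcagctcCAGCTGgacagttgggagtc
A total of 5 motifs were searched on both strands in the 250 bases before each start: the octamer ATGCAAAT, the EBF site, the ETS core GAGGAA, the E-box CAGCTG and the TATA box TATAAA. Among 32841 windows of that length, the EBF site was found in 0.78%, the TATA box in 12.4%, the E-box in 13%, the ETS core in 23.3% and the octamer in 1.6%. Besides the 3 matches in capitals, the Cd79a window held an ETS core, and the Cr2 and Pax5 windows and a further Fcer2a window held none of the 5. In the GRCm38 annotation, Ms4a1, Cd22 and Pax5 each overlap a gene on the opposite strand (4930526L06Rik, Gm29439 and, for Pax5, Gm12462 among others). The library kit does not mark strand, so reads from bases that such a pair shares cannot be told apart. Overlap was taken over whole genes, introns included, and shared exons were not examined.

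Libraries held between 14.64 M and 56.2 M counts, with medians of 25.79 M (LT), 24.79 M (ST) and 26.16 M (YA). Each tissue's defining marker was present in its own libraries, with 2 young LT colons (animals A52 and A53) as exceptions: their Car1 was 0.079 and 0.042 CPM where the other colons had at least 397, and their Apoa1 2614 and 5670 CPM where the others had at most 5.43. A young LT hippocampus (A53) held 7282 CPM of Alb, against at most 0.793 in the others. Also, 2 ST white blood cell libraries stood apart with low B cell genes: for E23 (aged control) Ms4a1 was 65.7 CPM and for E20 (knockdown) 57.9. The knockdown could not be checked, since hypothalamus is not among the ST tissues analysed here.

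All 8 genes were highest in white blood cells and spleen. In LT young controls, Cd79a ran from 607 to 869 CPM in white blood cells (median 699, n = 5) and from 225 to 484 in spleen (median 375, n = 8). Median Cd79a then fell to 28.5 in lung, 11.9 in colon, 2.78 in adipose tissue and 2.04 in liver. Cd79b, Cd22, Blk and Pax5 also had a higher median in white blood cells than in spleen, but their ranges overlapped, unlike those of Cd79a. Cd22 and Pax5 reached medians of 680 and 574 CPM in white blood cells. The order was the other way round for Ms4a1, with a spleen median of 681.5 CPM and a white blood cell median of 389, whose ranges overlapped. Cr2 showed the widest gap in that direction. Its spleens ran from 316 to 564 CPM (median 475) and its white blood cells from 100 to 177 (median 126), with no overlap. Fcer2a went the opposite way, from 322 to 482 CPM in white blood cells (median 386) and from 147 to 246 in spleen (median 223), again with no overlap. The order of the other tissues differed between cohorts. In YA controls, which had no spleen libraries, adipose tissue came second after white blood cells for all 8 genes. Cd79a ran from 4.23 to 222 CPM there (median 108). These levels are descriptions, and tissues of 1 animal are not independent.

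Fcer2a was also the member with a floor that the rest lacked. Its LT young medians lay between 2.47 CPM (kidney) and 7.33 (skeletal muscle) in each tissue other than white blood cells, spleen and lung, and its hypothalamus values ran from 4 to 6.24. In the same hypothalami Cd79a was below 1 CPM. Per kilobase of annotated exon, which allows genes to be compared with each other, Cd79a and Cd79b led in white blood cells, at 479.9 and 403.9 CPM per kb. Cd22 followed at 134.9 and Fcer2a at 125. Cr2, with the second longest exon total of the 8, was lowest in white blood cells at 15.5 CPM per kb and reached 58.6 in spleen, beside 47.3 for Pax5 and 58.4 for Blk there.

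**Figure D1:**
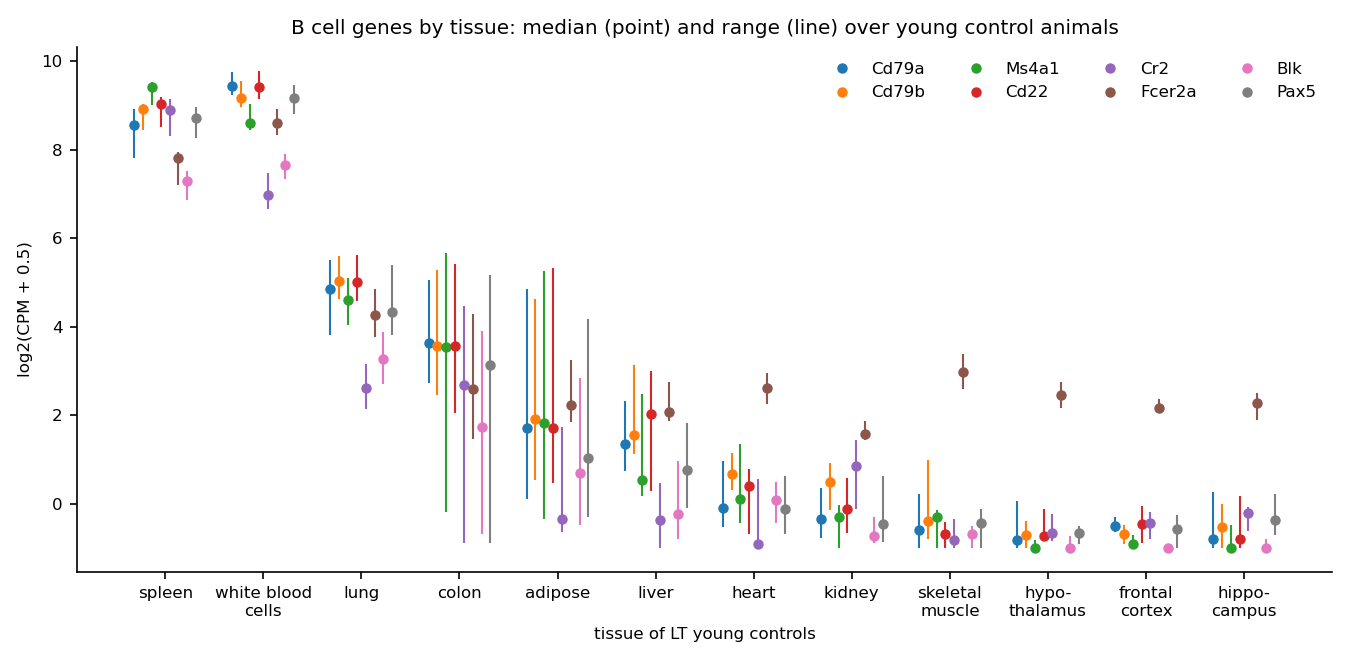
Levels of the 8 genes in the 12 tissues of LT young controls, as log2(CPM + 0.5). Points are medians and bars run from the lowest to the highest library. White blood cells and spleen are highest for all 8, and Fcer2a is the gene that stays at a few CPM in the remaining tissues.

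Across the 12 tissue means of LT young controls, the 10 genes outside the 8 whose log2(CPM + 0.5) followed Cd79a most closely included Fcrla (Pearson r = 0.9972), Ptprcap (0.9968), Fcmr (0.9961), Spib (0.9953), H2-Ob (0.995), Lat (0.9949), Ighd (0.9945), Siglecg (0.9943) and Cd3d (0.9938), out of 15716 genes. Lat and Cd3d are T cell genes. The points share the same animals and rest mainly on the 2 lymphocyte-rich tissues, so r is given as a description. For Pax5 the 10 closest included Ighd (r = 0.9991), Fcmr (0.9986), Cxcr5 (0.998), Siglecg (0.9975) and Fcrla (0.9973), with H2-Ob, Btla, Tmem156 and Slamf6 also among them. Within the 8, Cd22 had the highest r to Cd79a (0.9984), and Cr2 (0.9418) and Fcer2a (0.9197) the lowest.

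Age was tested in LT by comparing aged with young controls. In the 12 tissues, 69 of the 96 gene-by-tissue pairs had enough counts to be tested with edgeR's quasi-likelihood test, and 20 were called at an adjusted p under 0.05, 11 higher and 9 lower with age. Of all genes tested in all tissues, 13.6% were called. The calls fell in adipose tissue (8 higher), white blood cells (7 lower), kidney (2 higher), hypothalamus (1 higher), spleen (1 lower) and heart (1 lower). None was called in lung (8 tested, 6.43% of genes called) or in liver (7 tested, 4.5%). Replicates are separate animals.

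In adipose tissue the 8 genes rose with age together. Cd79a ran from 0.569 to 28.3 CPM in young controls (median 2.78, n = 8) and from 9.50 to 250 in aged controls (median 58.1, n = 9). Ms4a1 ran from 0.282 to 37.9 CPM (median 3.06) in young and from 16 to 275 (median 78.9) in aged controls, and Cr2 from 0.137 to 2.85 (median 0.290) and from 1.31 to 63.1 (median 8.29). The young range was stretched by 1 animal, A52, which was highest for each of these genes, and B19 was highest among the aged; the ranges overlapped for all 8. All 8 were called higher, with log2 fold changes (± SE) of 3.64 ± 0.81 for Cd79a (adjusted p = 9.4e-04), 3.76 ± 0.90 for Ms4a1 (0.00166), 4.41 ± 0.86 for Cr2 (3.3e-04) and 4.27 ± 0.87 for Pax5 (4.79e-04), the transcription factor. For the receptor partner Cd79b the change was 3.83 ± 0.70 (2.04e-04), for the inhibitory receptor Cd22 3.85 ± 0.81 (5.99e-04), for the kinase Blk 3.56 ± 0.67 (2.33e-04) and for Fcer2a 2.48 ± 0.55 (9.53e-04). In this comparison 50.8% of all genes were called and 26.1% were called higher; the median log2 fold change was 3.79 over the 8 and near 0 over all genes tested. Fcer2a had the smallest change of the 8, and its young median was 4.20 CPM, near its level in tissues poor in B cells.

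Both batches of adipose tissue showed the rise, with all 8 called in each. For Cd79a the log2 fold change was 5.84 in batch 3 alone and 2.63 in the other batch alone, and for Ms4a1 5.78 and 2.85. Pax5 changed by 6.08 and 3.56, Cr2 by 6.68 and 3.54, and Fcer2a by 3.42 and 1.96. All 8 were also called with any 1 animal left out. The largest changes came without A52, the highest young animal: 4.62 for Cd79a, 4.97 for Ms4a1, 4.54 for Cd79b, 5.15 for Cd22, 5.14 for Cr2, 5.48 for Pax5, 4.33 for Blk and 2.70 for Fcer2a. The smallest with another animal left out ran from 2.15 for Fcer2a to 4.04 for Cr2. In bulk tissue, more B cells and more RNA of these genes per B cell cannot be told apart.

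Other immune genes moved in the same aged adipose libraries. Of 23 further B cell genes, 21 rose, with a median log2 fold change of 3.12 (Ighm, the IgM heavy chain, 3.43; Pou2f2 2.52; Tnfrsf13b 2.01). Of 22 genes of B cell receptor signalling, 21 rose, with a median of 1.61, among them the adaptor Blnk (1.71) and the kinases Prkcb (2.11) and Syk (1.73). Plasma cell genes rose in 16 of 19 (median 2.93), led by the antibody genes Igkc (5.41) and Igha (4.91) and the joining chain Jchain (4.57). T cell genes rose in 20 of 20 (median 2.19; Cd4 3.05, Cd8a 2.72, Cd28 2.55), and their summed level went from 30.4 to 192 CPM in young and from 140 to 671 in aged controls. Macrophage genes rose in 11 of 12 (median 1.59), with sums of 1317 to 5073 and 5040 to 10870 CPM. Of 10 tested genes of follicle stroma and lymph node, 7 rose, with Cxcl13, the chemokine that draws B cells, at a log2 fold change of 4.06. Glycam1, a marker of lymph node vessels, was at most 0.16 CPM in every LT adipose library, while Ccl21a, a chemokine of lymph node stroma and lymphatics, ran from 5.41 to 102 CPM in young and from 0.217 to 52.4 in aged controls. Adipoq, the adipocyte hormone gene, was lower in the aged libraries (359 to 1438 CPM) than in the young (1302 to 3175), and the 5 tested erythroid genes fell. The part of these other cells in the rise of the 8 genes was not tested.

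**Figure D2:**
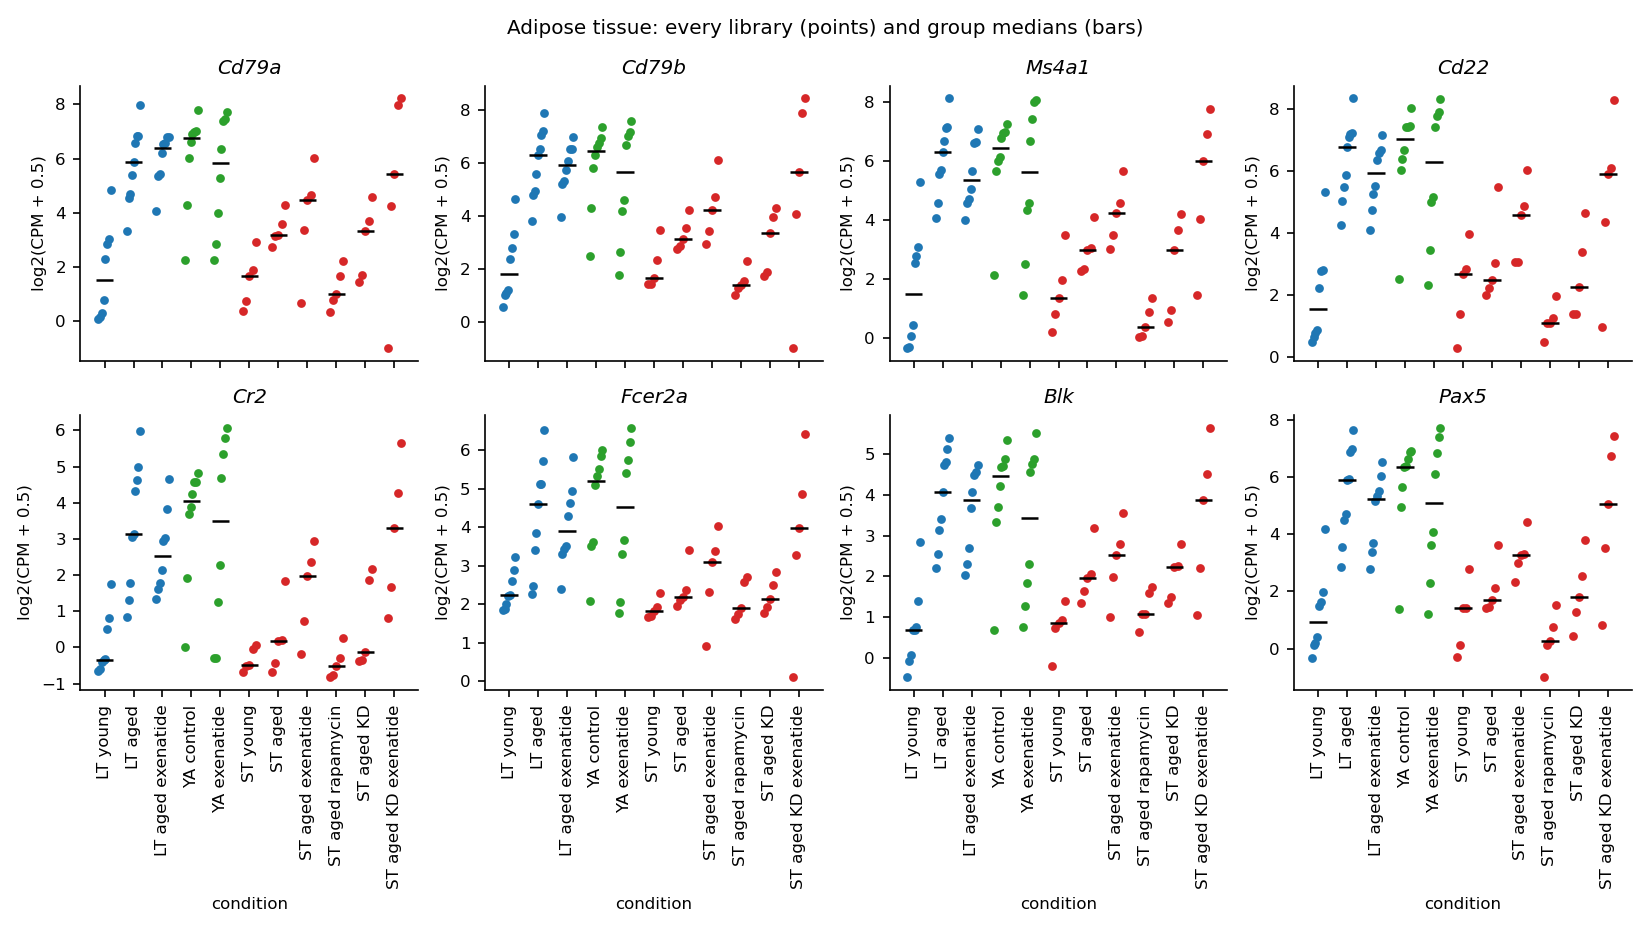
CPM (log axis) of the 8 genes in every adipose tissue library of the 11 conditions, with 1 point per animal; points within a condition are spread sideways in order of value, and the cohorts were scaled separately. In LT, aged controls lie above most young controls for each gene, and the ST group with knockdown and exenatide has the widest spread.

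Exenatide did not move the 8 genes past the threshold in LT adipose tissue, where 18.8% of all genes were called against aged controls. All 8 changes were negative, from -0.15 to -1.13 on the log2 scale. Cd79a ran from 16.3 to 111 CPM with exenatide (median 83.1, n = 8) against 9.50 to 250 in aged controls, and Ms4a1 from 15.2 to 135 (median 40.97). The treated range lay inside the control range for Cd79a, and for Ms4a1 the ranges overlapped.

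White blood cells went the other way from adipose tissue: 7 of the 8 fell with age, where 27.7% of genes were called and 12% called lower. Cd79a was 607, 617, 699, 772 and 869 CPM in the 5 young controls and 197, 250, 328, 457 and 462 in the 5 aged controls. Blk was 160, 165, 201, 226 and 239 in the young and 74.8, 93.2, 96.6, 116 and 123 in the aged. Fcer2a was 322, 329, 386, 436 and 482 in the young and 96.2, 153, 183, 254 and 285 in the aged. For these genes, and for Cd79b and Cd22, every young animal lay above every aged one. The log2 fold changes were -1.03 ± 0.23 for Cd79a (adjusted p = 0.00676), -0.94 ± 0.16 for Blk (0.00348), -0.97 ± 0.22 for Fcer2a (0.00784), -0.82 ± 0.21 for Cd22 (0.0111), -0.76 ± 0.20 for Cd79b (0.0124) and -0.77 ± 0.22 for Pax5 (0.0197) by edgeR. Ms4a1 had -0.63 ± 0.22 (adjusted p = 0.0411), with 348, 353, 389, 466 and 528 CPM in the young and 161, 195, 260, 343 and 350 in the aged. Its groups overlapped, and its call was lost when A56, A57, A58, B27, B34 or B39 was left out (adjusted p from 0.0625 to 0.102), as was that of Pax5 without A57 (0.0515).

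Cr2 was the member whose fall did not pass. It was 100, 113, 126, 147 and 177 CPM in young and 48.5, 71.7, 93.4, 111 and 153 in aged white blood cells, with a log2 fold change of -0.43 ± 0.26 (adjusted p = 0.238). The groups overlapped. Of the 23 further B cell genes, 16 fell (median -0.61), among them the transcription factor Spib (-0.90) and Tnfrsf13b (-0.62). In the same libraries platelet genes rose in 8 of 8 (median 1.83; Gp6 1.94, Gp9 1.87, Ppbp 1.83), and Ppbp ran from 588 to 1442 CPM in young and from 1507 to 4810 in aged controls. Neutrophil genes rose in 4 of 10 (median 1.03), and of 20 T cell genes 1 rose and 2 fell. CPM are shares of a library, and the part of the platelet and neutrophil RNA in the fall of the 8 genes was not tested.

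In LT spleen, where 11.2% of genes were called and 4.27% called lower, 7 of the 8 changes with age were negative and 1 member was called. Ms4a1 fell by 0.56 ± 0.14 on the log2 scale (adjusted p = 0.0149), from a range of 519.8 to 745 CPM (median 681.5) in young to 341 to 596 (median 428) in aged controls. The ranges overlapped, and the call was lost in each batch alone (-0.64, adjusted p = 0.0625, in batch 3 and -0.52, adjusted p = 0.202, in the other). Cr2 had -0.43 ± 0.14 (adjusted p = 0.0525), Pax5 -0.40 ± 0.14 (0.0632) and Fcer2a -0.39 ± 0.18 (0.148), none of them called. Cr2 and Pax5 lay near the threshold: Cr2 was called by DESeq2 (adjusted p = 0.0324), with DESeq2's size factors (0.0455), without the filter (0.0494), with the compared conditions alone (0.0238) and without A52, A56, B19 or B24 (0.0146 to 0.0332). Pax5 was called by DESeq2 (0.0415), with the compared conditions alone (0.0107) and without A56, B19 or B24 (0.0373 to 0.0495). With the compared conditions alone, edgeR also called Fcer2a (-0.39, adjusted p = 0.0374) and Cd79b (-0.22, 0.0445). Cd79a stood on the other side at 0.24 ± 0.17 (adjusted p = 0.365), with 225 to 484 CPM in young and 314 to 531 in aged controls. Plasma cell genes rose in 14 of 19 in the same spleens (median 1.01; Derl3 1.51, Jchain 1.13, Xbp1 1.01), with Jchain at 1405 to 1996 CPM in young and 2506 to 5207 in aged controls. Of the 23 further B cell genes, 2 rose and 3 fell.

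In kidney 2 members, Cd79a and Cd79b, rose with age, and the Cd79a change was the larger. Cd79a ran from 0.0801 to 0.784 CPM in young (median 0.283, n = 8) and from 0.938 to 5.47 in aged controls (median 2.28, n = 9). The groups did not overlap, and the log2 fold change was 2.92 ± 0.42 (adjusted p = 3.3e-05), where 7.45% of genes were called and 4.72% called higher. It was 3.42 in batch 3 alone and 2.70 in the other batch alone, called in both. Cd79b changed by 0.90 ± 0.27 (adjusted p = 0.0353); this call was lost in each batch alone (adjusted p = 0.181 and 0.209) and without any of A53, A54, A55, A57, A58, B15, B24, B39 or B41 (0.0507 to 0.0784). Ms4a1 (0.73 ± 0.52, adjusted p = 0.454) and Cd22 (0.82 ± 0.36, 0.189) did not pass, Fcer2a had -0.03 ± 0.11, and Blk had too few counts to be tested. Plasma cell genes rose in 13 of 17 in these kidneys (median 3.77; Jchain 4.30, Igha 4.15, Pou2af1 3.99), and Jchain ran from 9.76 to 29.5 CPM in young and from 108 to 640 in aged controls. T cell genes rose in 11 of 18 and macrophage genes in 9 of 10. Whether any of these other cells contributed to the Cd79a change was not tested.

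**Figure D3:**
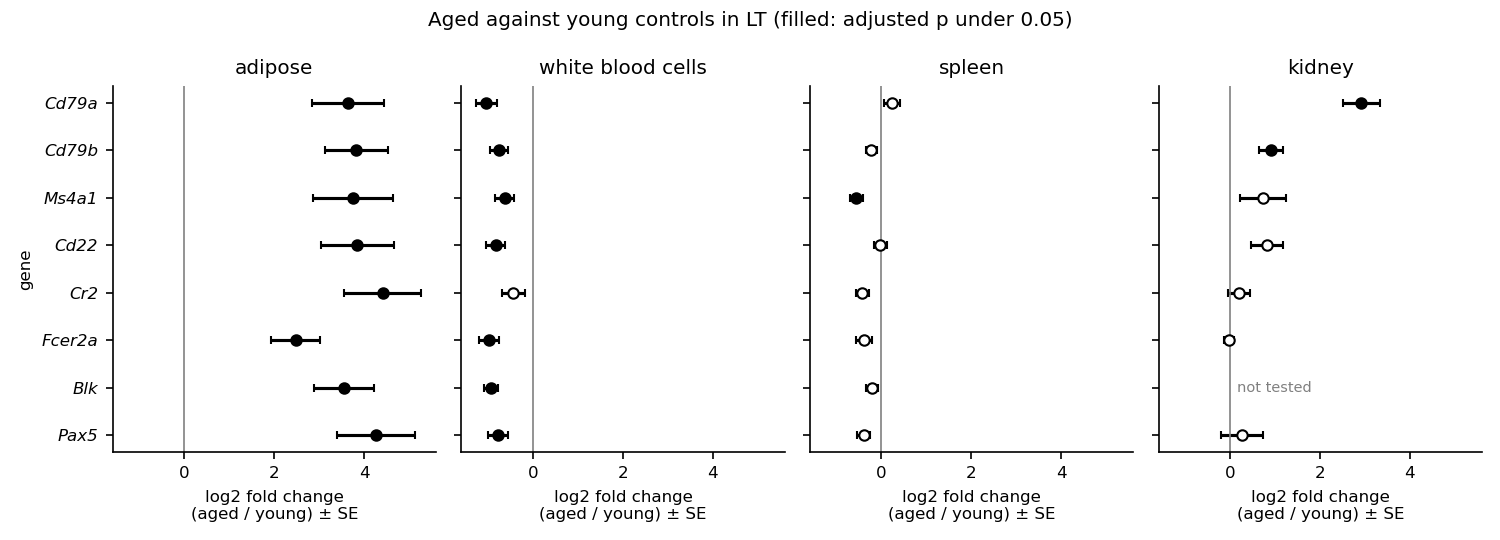
Log2 fold change of aged against young LT controls for the 8 genes in adipose tissue, white blood cells, spleen and kidney, with bars of 1 SE on each side. Filled points were called at an adjusted p under 0.05; all 8 are positive in adipose tissue and negative in white blood cells, and Blk was not tested in kidney.

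In heart 1 of 6 tested members was called, a share near the 17.9% of all genes called (9.87% called lower). Fcer2a, at the few CPM it kept in tissues poor in B cells, fell by 0.41 ± 0.13 (log2, adjusted p = 0.0248). It ran from 4.24 to 7.24 CPM in young and from 2.99 to 5.13 in aged controls. The ranges overlapped. The call was lost in each batch alone (adjusted p = 0.432 and 0.0753) without A51 (0.0579) or A52 (0.0761), without the filter on low counts (0.0642), with the compared conditions alone (0.0522) and without the batch term (0.0674). In ST heart the Fcer2a values of young (4.19 to 6.94 CPM) and aged controls (3.07 to 4.995) overlapped too, and no member was called there, where 24.6% of genes were.

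Cd22 was the member that rose with age in brain. In ST hippocampus it was 0.0201, 0.159, 0.171, 0.183 and 0.209 CPM in the 5 young and 0.644, 0.689, 0.729, 1.14 and 1.60 in the 5 aged controls. In ST frontal cortex it was 0.132, 0.233, 0.267, 0.316 and 0.348 in the young and 0.5259, 0.758, 0.856, 1.15 and 1.35 in the aged. In both regions the groups did not overlap. The log2 fold change was 2.73 ± 0.38 in hippocampus (adjusted p = 3.74e-06, with 26% of genes called and 11.9% called higher) and 1.87 ± 0.29 in frontal cortex (adjusted p = 2.91e-04, with 5.56% called and 4.3% called higher). These were the only 2 of 40 tested gene-by-tissue pairs called for age in ST, where 13.6% of all genes were, and both were called with each animal left out and in each alternative fit. In the same libraries Ms4a1 was at most 0.170 CPM, Blk at most 0.068 and Cd79a at most 0.41. Ms4a1, Cd79a, Cd79b and Blk had too few counts to be tested in these regions.

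In LT the same gene was called in hypothalamus, where 7.09% of genes were called and 3.12% called higher. Cd22 ran from 0.067 to 0.424 CPM in young (n = 8) and from 0.319 to 1.49 in aged controls (n = 9), with a log2 fold change of 2.05 ± 0.34 (adjusted p = 0.00105). A single young animal, A58 at 0.424, reached into the aged range, and the next highest was 0.165. Within batch 3 the change was 2.52 (adjusted p = 0.163) and within the other batch 1.74 (adjusted p = 0.0548), so it was not called within a batch. In LT frontal cortex Cd22 had 1.01 ± 0.34 (adjusted p = 0.0757, 5.74% of genes called; called by DESeq2, 0.0483, and without A56 or B15, 0.0388 and 0.0425) and in LT hippocampus 1.70 ± 0.66 (adjusted p = 0.435, 0.403% called). Young LT hippocampi ran from 0 (A54, where 0 counts allow up to 0.103 CPM) to 0.629, aged ones from 0.272 to 0.856. The library at 0.629 is that of A53, the one with 7282 CPM of Alb, and the next highest young value was 0.165. Without A53 the hippocampal change was 2.83 (adjusted p = 0.0638). Whether the cohorts differ in the size of the change was not tested.

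Macrophage genes, which microglia share, rose in 5 of 10 in ST hippocampus (Adgre1 0.86, Cd68 0.55, Csf1r 0.46 on the log2 scale), with Adgre1 at 4.78 to 5.48 CPM in young and 7.74 to 10.8 in aged controls. In ST frontal cortex 0 of the 10 were called, and in LT hypothalamus 4 of 10 were higher (C1qa 1.01, C1qc 0.78, C1qb 0.62). Neutrophil genes rose in 5 of 7 in ST hippocampus (median 2.24), further B cell genes in 4 of 13 and plasma cell genes in 3 of 11. The part of these cells in the Cd22 values was not tested.

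**Figure D4:**
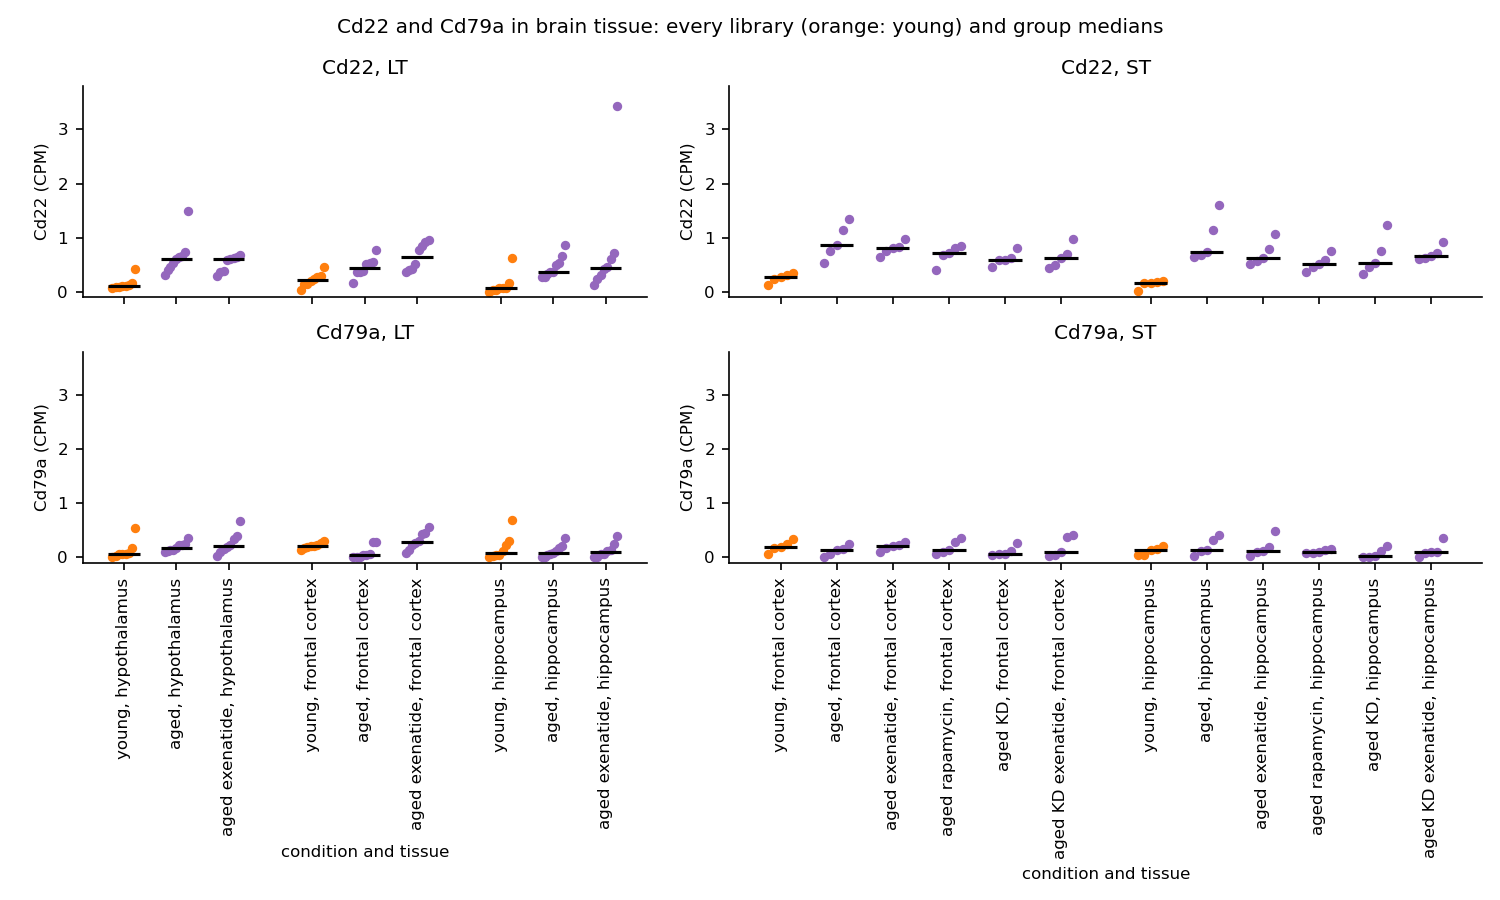
CPM of Cd22 and Cd79a in each brain library of the LT and ST cohorts by condition, with 1 point per animal spread sideways in order of value. Cd22 of ST aged controls lies between 0.5259 and 1.60 CPM in both regions, above all young controls (0.0201 to 0.348).

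Among aged ST mice, rapamycin was the treatment with calls, in 2 of 40 tested gene-by-tissue pairs. This is a smaller share than the 13.2% of all genes called over all tissues. Both calls were in hippocampus, where 4 members were tested and 27.6% of genes were called, 14.1% higher and 13.5% lower. Cd22 was 0.375, 0.457, 0.510, 0.587 and 0.752 CPM with rapamycin, against 0.644 to 1.60 in aged controls, a log2 fold change of -0.87 ± 0.33 (adjusted p = 0.0467). The groups overlapped, and the call was lost without E6, E10, E13, E23, E28 or E36 (adjusted p from 0.0628 to 0.210); without E13, the control at 1.60, the change was -0.59. Fcer2a, at the few CPM it kept in tissues poor in B cells, rose by 0.31 ± 0.10 (adjusted p = 0.0254). It went from 3.52 ± 0.362 CPM in controls to 4.41 ± 0.198 with rapamycin (mean ± SD, n = 5 each), without overlap. That call was lost without E10, E22 or E32 (adjusted p from 0.0533 to 0.0819). Without the filter on low counts neither was called (adjusted p = 0.0593 for Cd22 and 0.0683 for Fcer2a). Of 10 macrophage genes 4 were lower in the same comparison. Exenatide and the knockdown left Cd22 uncalled in both ST brain regions, with log2 fold changes of -0.47 ± 0.32 (28.6% of genes called) and -0.55 ± 0.33 (4.98%) in hippocampus. All these comparisons share the 5 aged controls.

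The mature B cell receptors were also set against Cd79a inside each library, as log2 of the ratio of (CPM + 0.5), in spleen and white blood cells. Where both genes come from B cells alone, such a ratio does not depend on how much of the library is B cell RNA. That condition was not tested, and Fcer2a kept a few CPM in tissues poor in B cells. In all, 40 ratios were compared by exact permutation of animals (two-sided), with p-values adjusted over the 40. In LT spleen the Fcer2a ratio was -0.78 ± 0.12 in young (mean ± SD, n = 8) and -1.43 ± 0.40 in aged controls (n = 9). Every aged spleen (-2.25 to -1.03) lay below every young one (-1.003 to -0.61), and the difference was -0.65 (adjusted p = 0.0136, exact permutation within batch). The ratios of Ms4a1 (-0.84), Cr2 (-0.70), Cd79b (-0.48) and Blk (-0.47) to Cd79a also fell in spleen (adjusted p = 0.0353 each, exact permutation). Within batch 3 and batch 2 the Fcer2a difference was -0.51 (adjusted p = 0.114) and -0.76 (0.0353), and the Cr2 difference -0.57 (0.149) and -0.79 (0.0882), all by exact permutation. In batch 3 alone, with 4 aged against 3 young spleens, the smallest possible p is 0.0286 before adjustment, so no ratio could pass there. The Cr2 call was lost without A57 (-0.59, adjusted p = 0.0528, exact permutation). Plasma cell genes, which rose in these spleens, come from cells that can keep Cd79a; their part was not tested. Set against Ms4a1 in place of Cd79a, the differences were 0.20 for Fcer2a and 0.14 for Cr2, neither of which passed, so the direction in spleen depends on the gene in the denominator.

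In LT white blood cells the picture was another one. The Fcer2a ratio differed by 0.05 between aged and young controls (adjusted p = 0.547, exact permutation), whereas the Cr2 ratio was higher with age by 0.59 and that of Cd79b by 0.31 (adjusted p = 0.0353 each, exact permutation; 0.007937 is the smallest unadjusted p that n = 5 against 5 can give). Against Ms4a1 the Cr2 difference was 0.17 and did not pass. Without any 1 of the young animals A52, A53, A56, A57 or A58 the Cr2 difference to Cd79a missed the threshold (adjusted p = 0.0529, exact permutation). Leaving out an aged animal kept the call, and 4 against 5 animals can reach the same smallest p as 5 against 5. In ST white blood cells the Cr2 ratio went the other way, by -1.42 with age (adjusted p = 0.0595, exact permutation; 0.0488 without E23 or E32). Cr2 itself was 67.1, 142, 162, 180 and 218 CPM in the 5 young and 23.6, 34.9, 94.9, 95.7 and 97.7 in the 5 aged ST controls. All but 1 of the young values lay above all the aged ones. The Fcer2a ratio was lower by 1.13 and the Blk ratio by 0.42 with age in ST (adjusted p = 0.0353 each, exact permutation). The Fcer2a call was lost without any 1 of the young animals A42, A43, A44, A45 or A47 (adjusted p from 0.0529 to 0.0595, exact permutation). It was kept when an aged animal was left out. Against Ms4a1 the ST Fcer2a difference was -0.57 and did not pass (adjusted p = 0.0882, exact permutation). Whether the LT and ST cohorts differ in these ratios was not tested.

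Against the same ST aged controls, the Cr2 ratio was 1.91 higher with rapamycin (adjusted p = 0.0529) and 1.47 higher with exenatide (adjusted p = 0.0882, both exact permutation), neither past the threshold. Cr2 was 124, 178, 190 and 194 CPM in the 4 rapamycin libraries and 50.5, 62.7, 179 and 196 in the 4 exenatide libraries. All 4 rapamycin values were above the 5 aged controls, and the exenatide values fell into a low and a high pair. The count test of Cr2 for rapamycin gave a log2 fold change of 1.26 ± 0.54 (adjusted p = 0.117, with 12.8% of genes called). In YA white blood cells the Ms4a1 ratio was 0.65 higher with exenatide (adjusted p = 0.0398) and the Cd79b ratio 0.27 higher (adjusted p = 0.0458, both exact permutation), and the Cr2 ratio passed only when A37 was left out (0.67, adjusted p = 0.0379). In LT no ratio passed for exenatide, the smallest adjusted p being 0.0882 by exact permutation.

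**Figure D5:**
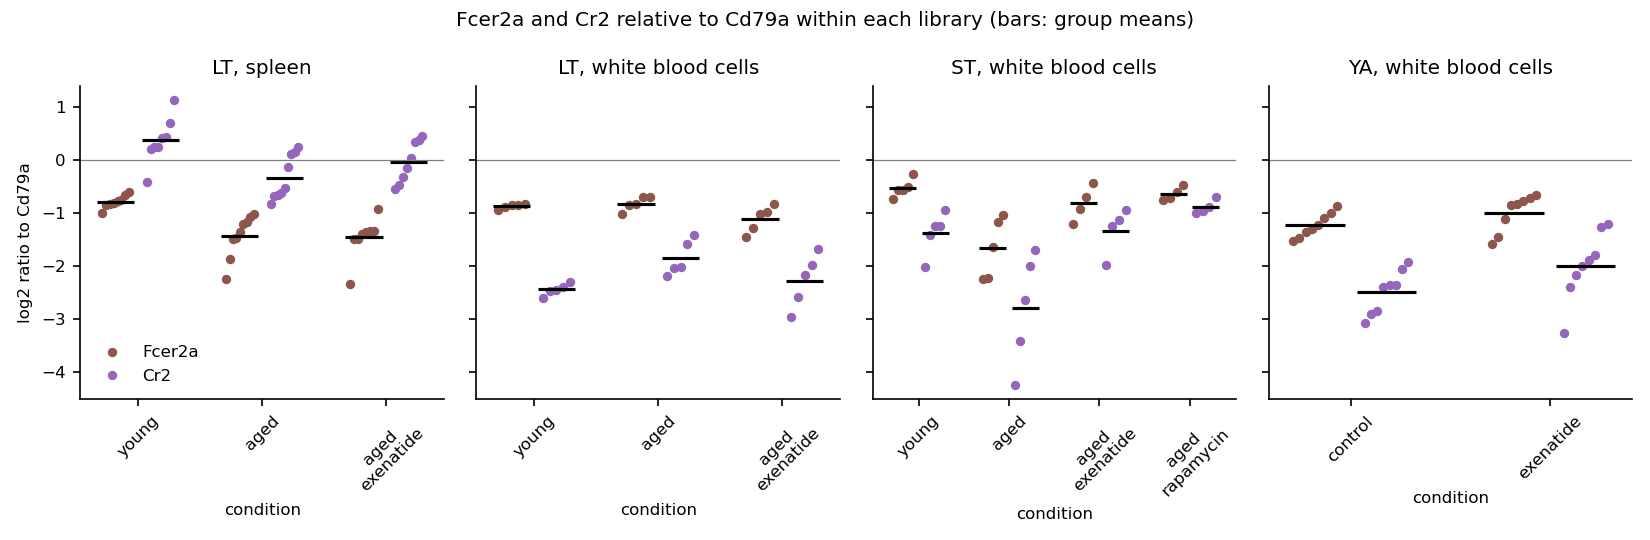
Log2 ratio of Fcer2a and of Cr2 to Cd79a (CPM + 0.5) in each library of LT spleen and of white blood cells of the 3 cohorts, with 1 point per animal and bars at the group means. In LT spleen all 9 aged controls lie below all 8 young controls for Fcer2a.

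The ST white blood cell libraries of E20 and E23, low in all B cell genes, bear on the counts of calls there. With both left out, as an alternative added after the data were seen, Cd79a was lower with exenatide by 1.16 on the log2 scale (adjusted p = 0.0407, 6.37% of genes called), and Cd79b was lower with rapamycin by 0.95 (adjusted p = 0.0474, 11.3% called). Both libraries were picked for low values of these same genes. Leaving out E23, an aged control, raises the control level by itself, so these calls are no separate support for a fall. With all libraries in, none of the 8 was called in ST white blood cells for age (23.6% of genes called), exenatide (6.66%) or rapamycin (12.8%). Cd79a there was 115, 381, 451, 600 and 1045 CPM in aged controls and 150, 201, 379 and 395 with exenatide. The lowest control was E23, and the other controls overlapped the treated range by 1 animal.

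In LT colon all 8 age differences were negative and none was called, where 14.4% of genes were. The log2 fold changes ran from -0.12 for Cd79a to -1.41 for Pax5, with Cd22 nearest the threshold (-1.26 ± 0.47, adjusted p = 0.0756). In batch 2 alone, which held A52, edgeR called Blk (-2.34, adjusted p = 0.0462), Cd22 (-2.24, 0.0389) and Cr2 (-2.62, 0.0424). Ms4a1 (-2.405, 0.0482) and Pax5 (-2.62, 0.0462) were called there too. Without the batch term Cd22 (0.025) and Ms4a1 (0.0445) were called, and by DESeq2 Cd22 (0.0252). Cd79a was 6.14 to 33 CPM in the 6 young controls, with A52, an off-type colon, highest. Without the colons of A52 and A53 the change of Cd79a was 0.16 and that of Pax5 -1.16 (adjusted p = 0.243), again with none called (3.96% of genes). Under exenatide Cd79a had a log2 fold change of -0.78 in colon (adjusted p = 0.0617, with 12.1% of genes called), from 11.1 to 17.7 CPM in aged controls (n = 9) and from 5.09 to 13.4 in treated mice (n = 8). The ranges overlapped. It was called without A52 and A53 (-0.77, adjusted p = 0.0281), by DESeq2 (0.0350) and with the compared conditions alone (0.00616).

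In ST adipose tissue the levels in aged controls were also above those of young controls without passing the test. Cd79a was 0.786, 1.17, 2.66, 3.22 and 7.05 CPM in young and 6.23, 8.32, 8.54, 11.5 and 18.9 in aged controls, which overlapped by 1 animal each. The 8 log2 fold changes for age ran from 0.72 to 1.87, and 0.0% of genes were called. With rapamycin Cd79a was 0.764, 1.22, 1.52, 2.69 and 4.19 CPM, below all 5 aged controls. The 8 changes ran from -0.36 to -2.95, 5 of them with an unadjusted p under 0.05, and the smallest adjusted p was 0.286 (0.00566% of genes called). T cell genes summed to 16.3 to 46.1 CPM with rapamycin and 30.3 to 349.5 in aged controls. Exenatide gave 0.47 to 1.81 over the 8, with none called (0.0% of genes).

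Exenatide in knockdown mice gave the largest log2 fold changes of the 8 genes in ST, in adipose tissue. Cd79a was 2.19, 2.73, 9.52, 12.6 and 23.7 CPM with the knockdown alone, and 0, 18.4, 42.6, 253 and 296 with exenatide added. The 0 belonged to E12, where 0 counts allow up to 0.107 CPM, and 2 of the 5 treated libraries carried most of the rise. Log2 fold changes ran from 2.34 (Blk) to 3.79 (Pax5), and the smallest adjusted p was 0.0611 (0.0226% of genes called), so none of the 8 was called. Leaving out E12 or E34 made 8 gene-by-tissue pairs called, and leaving out E8 made 7. T cell genes summed to 26.1 to 418 CPM with the knockdown and 31.5 to 1097 with exenatide added, and Adipoq to 1603 to 2865 and 484 to 1825. In colon of the same mice the 8 changes were all negative, from -0.98 (Fcer2a) to -1.59 (Cd79a), with a smallest adjusted p of 0.104 (0.166% of genes called). The interaction of exenatide with the knockdown was called for none of the 8 in any tissue (2.41% of all genes called, and 2 of 40 pairs with an unadjusted p under 0.05).

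The remaining contrasts gave no call by edgeR among the 8 genes. For exenatide these were 0 of 69 pairs in LT (4.92% of all genes called, 7 pairs with an unadjusted p under 0.05, 1 called by DESeq2), 0 of 34 in YA (0.631%, 2 pairs) and 0 of 40 in ST (8.0%, 0 pairs). Knockdown gave 0 of 40 (3.27%, 1 pair) and exenatide in knockdown mice 0 of 40 (4.94%, 17 pairs, 9 called by DESeq2). YA adipose tissue had wide ranges in both groups, and 0.0% of its genes were called. Cd79a ran from 4.23 to 222 CPM in the 8 controls (median 108) and from 4.27 to 210 with exenatide (median 60.1), which is nearly the same range. The lowest controls were A32 at 4.23 and A81 at 19, and A81 also had the lowest Adipoq of the cohort at 81.8 CPM.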

How the data were processed

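Bulk poly(A) RNA-seq libraries were made with the NEBNext Ultra II kit after TRIzol or RNAqueous extraction, per the labels' protocols. The build was GRCm39 and reads were checked with FastQC 0.11.9, per the submitters' processing notes. The aligner, counter and annotation are not given in the sources used here. Tables deposited by the authors hold whole counts per gene for LT and estimated counts for ST and YA (7.37% and 7.21% of non-zero values not whole), which were rounded for the tests.

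Groups came from the titles and batches from the descriptions: LT liver in batch 3, LT white blood cells in batch 1, other LT tissues in batch 3 and batch 1 or 2, YA in batches 4 and 6 (colon), and ST in batch 5. Each tissue was tested with edgeR 4.0.16 in R 4.3.3 (TMM, filterByExpr, robust quasi-likelihood F test over all conditions, with a batch term for LT tissues in 2 batches). Adjustment was by Benjamini-Hochberg over all genes of a tissue and contrast and genes were called under 0.05. CPM were TMM-scaled within a cohort; 1 SE or SD is given as named, and floors are 3 counts and cover counting error only. Ratios used a pseudocount of 0.5 CPM and exact permutation tests, checked against scipy 1.17.1. Likeness took the 10 closest genes with at least 10 CPM in a tissue. All 8 members are named, and of other lists the 3 genes with the smallest adjusted p, except that 1 gene of these and of the likeness lists is not reported here; Cxcl13, Glycam1, Ccl21a, Adipoq, Alb, Apoa1 and Car1 were named after their values were seen. Members and lists were chosen with earlier results of these data known. Alternatives were DESeq2 1.42.0, its size factors, no filter, fewer conditions, no batch term, single batches, other denominators and each animal left out. On simulated counts, 2-fold changes were recovered in 88% (LT age, adipose tissue, 16713 genes), 88% (YA exenatide, white blood cells, 13259 genes) and 48% (ST age, adipose tissue, 17284 genes), and 4-fold changes in 100% of each. The simulation gave all genes the same spread between animals and changed only genes above a minimum count. These shares therefore do not give the power for the 8 genes, whose spread and counts differ.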

Additional observations from a re-analysis of the deposited data

Results flagged for a closer look

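A highest or lowest library stood apart from its group (gap to the nearest library against the group's range, Dixon's 95% criterion) in 13 of the 95 groups looked at. Chance alone gives about 1 in 20 where groups are independent. Here the genes share libraries and move together, so 13 of 95 cannot be compared with that share. In LT adipose tissue, the aged control B19 was highest for Ms4a1 (275 CPM, next 142), Cd79a (250, next 114) and Cr2 (63.1, next 31.1), and the young control A52 was highest for Ms4a1 (37.9 CPM, next 7.94), Cd79a (28.3, next 7.72) and Cr2 (2.85, next 1.25). In LT exenatide mice, B28 was lowest for Cr2 in spleen (156 CPM, next 299), B30 highest for Cd79a in kidney (5.4, next 2.29) and B26 highest for Cd22 in hippocampus (3.44, next 0.726). The B26 hippocampus also held 19.05 CPM of the neutrophil gene Csf3r, and the B28 spleen was low for all 8 genes. Cd22 stood high in the LT young hippocampus of A53 (0.629 CPM, next 0.165), the LT young hypothalamus of A58 (0.424, next 0.165) and the LT aged hypothalamus of B19 (1.49, next 0.731), and low in the ST young hippocampus of A46 (0.0201, next 0.159).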

How the results depend on the processing

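Over the 24 called gene-by-tissue results, 466 checks under other settings gave 426 with the same direction and call, 40 with the same direction but no call, and 0 reversals. No paired analysis was possible because each animal belongs to 1 condition and the groups share no replicate numbers. Low counts limit Cd22 in brain and most members in muscle, heart and kidney.

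Of the gene-by-tissue pairs called, LT age gave 9 in batch 3 alone (17 to 22 with 1 animal left out), where fewer samples were fitted. Tissues held in a single batch, white blood cells (7 of the 20 main calls) and liver, were not part of that count of 9. LT exenatide gave 1 by DESeq2, 1 with the compared conditions alone and 1 without the A52 and A53 colons. ST rapamycin gave 1 without the filter, in a pair that the filter keeps from the test (Blk in frontal cortex), with neither of the 2 reported calls kept, and 5 by DESeq2 (0 to 2 with 1 animal left out). ST exenatide in knockdown mice gave 9 by DESeq2 (0 to 8 with 1 animal left out), and ST exenatide 1 without E20 and E23, an alternative added, like that of the colons, after the data were seen. E20 and E23 were picked for low values of these same genes.

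The LT colon age difference of Cd79a turned to 0.81 in batch 3 alone, to 0.19 without A52 and to 0.05 without A57 (-0.34 to 0.19 with 1 animal left out), and that of Pax5 to 2.62 in batch 3 alone. With Ms4a1 as denominator, the Fcer2a ratio differed by 0.20 (LT age, spleen), -0.38 (LT age, white blood cells), 0.13 (LT exenatide, white blood cells), -0.57 (ST age, where the call was lost) and -0.42 (YA exenatide), and the Cr2 ratio by 0.14 (LT age, spleen), 0.17 (LT age, white blood cells) and -0.16 (YA exenatide). The YA Fcer2a difference passed there (adjusted p = 0.0477, exact permutation), opposite in sign to the 0.23 against Cd79a, which did not pass. In LT spleen, single batches gave -0.51 (batch 3, age) and 0.27 (batch 2, exenatide) for Fcer2a, and -0.57 (batch 3, age), -0.79 (batch 2, age) and -0.17 (batch 3, exenatide) for Cr2. With 1 animal left out, the Cr2 ratio ran from -0.81 to -0.59 (LT age, spleen), 0.48 to 0.67 (LT age, white blood cells), -1.70 to -1.06 (ST age) and 0.38 to 0.67 (YA exenatide), and the Fcer2a ratio from -0.13 to 0.10 (LT exenatide, spleen) and -1.29 to -0.99 (ST age). The spleen median of Cd79a was 526.7 CPM on plain totals. No ratio could pass in batch 3 alone at its number of animals. The cause of these changes was not tested.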
